A study of Mus musculus with 14 samples.

Results

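Mouse 2-cell embryos produced through somatic cell nuclear transfer (SCNT, the transfer of a body cell's nucleus into an oocyte stripped of its own) and given a mutant form of Kdm4d were compared with 2-cell embryos made by in vitro fertilisation (IVF). The comparison took the 2 libraries labelled as overexpressing mutant Kdm4d and the 2 IVF 2-cell libraries, 4 of the 14 libraries of the series, across all genes. Each of the 4 libraries was made from a pool of 25 embryos. Per the strain labels, the SCNT embryos had donor cumulus cell nuclei of (C57BL/6J x CAST/EiJ) F1 mice in B6D2F1 recipient oocytes, and the IVF embryos came from C57BL/6J oocytes and CAST/EiJ sperm. Oocyte strain, route of conception and the introduced Kdm4d therefore all differed between the groups and cannot be told apart. According to the labels' protocol, though, the cumulus cells came from BDF1 females, which is at odds with the strain label and unresolved. Neither the mutation nor how the gene was introduced is stated in the labels. Of the other groups of 2 libraries, plain SCNT 2-cell embryos (pools of 40, same strains) and SCNT embryos overexpressing Kdm4d itself (pools of 25, same strains) carry no mutant Kdm4d; plain SCNT embryos were also tested directly against the mutant group, and values of the Kdm4d group are set beside it.

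Kdm4d encodes an enzyme that removes methyl groups from lysine 9 of histone H3, a mark of silent, compacted chromatin. The mouse embryo starts large-scale transcription of its own genome at the 2-cell stage, when transcripts stored in the oocyte are cleared and a burst of stage-specific genes and repeat families is switched on. After SCNT, the oocyte has to impose this programme on a nucleus that was active in another cell type.

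Values are FPKM, fragments scaled to transcript length and library size, as deposited. Differences are of log2(FPKM + 1), which understates the changes of genes near 0, and a gene is called changed at an adjusted p under 0.05 (limma with 1 weight per group, Benjamini-Hochberg over the 13454 genes tested). FPKM is relative to all RNA in a library, so a change in the amount of RNA per embryo does not show. These are pools of whole embryos, in which fewer cells of a type and less RNA per cell cannot be told apart. The mutant libraries summed to 281264 and 234041 FPKM and the IVF libraries to 242792 and 235782, with 10188 and 10790 genes at 1 FPKM or more against 8943 and 8878. The table gives no read counts, so depth is known only in relative terms: judged by the smallest steps between low values, the mutant libraries had 0.586 and 0.637 of the depth of the first IVF library, and the second IVF library 1.01. The mutant replicates also agreed less well with each other (Spearman's rho 0.932 across genes, against 0.98 between the IVF replicates), and their robust SD over 6256 genes was 0.373 against 0.142 on the log2 scale. The fit therefore gave the mutant group a weight of 0.263 and the IVF group 1.43.

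The 250 bases of RefSeq sequence before the annotated start (build GRCm38.p6) of 4 genes on which the comparison turned are shown here to place the differences on the genome. Obox3 and Rpl10l were low in the mutant embryos and active after IVF, and Gstm1 and Slc38a2 the reverse. Capitals mark a match, on either strand, to the letters TATAAA of the TATA box, the letters CCAAT of the CCAAT box, the letters GGGCGG of the GC box, or the letters TAATCC of the Crx-type homeobox motif.
Obox3 (chr7:15639778-15640027, minus strand): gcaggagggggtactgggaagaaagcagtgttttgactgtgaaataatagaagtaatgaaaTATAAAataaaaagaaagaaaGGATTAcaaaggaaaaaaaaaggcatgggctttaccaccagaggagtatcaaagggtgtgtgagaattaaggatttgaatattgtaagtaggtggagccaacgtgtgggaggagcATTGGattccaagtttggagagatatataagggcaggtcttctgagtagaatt
Rpl10l (chr12:66284402-66284651, minus strand): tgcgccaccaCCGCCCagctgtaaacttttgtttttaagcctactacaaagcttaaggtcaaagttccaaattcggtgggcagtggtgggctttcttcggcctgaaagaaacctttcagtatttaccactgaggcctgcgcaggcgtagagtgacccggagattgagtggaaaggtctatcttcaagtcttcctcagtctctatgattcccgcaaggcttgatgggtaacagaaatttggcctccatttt
Gstm1 (chr3:108017974-108018223, minus strand): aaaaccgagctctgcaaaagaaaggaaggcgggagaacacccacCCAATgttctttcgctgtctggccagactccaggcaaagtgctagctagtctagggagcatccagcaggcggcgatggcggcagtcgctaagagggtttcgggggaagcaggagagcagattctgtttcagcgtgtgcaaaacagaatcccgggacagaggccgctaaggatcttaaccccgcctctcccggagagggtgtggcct
Slc38a2 (chr15:96699729-96699978, minus strand): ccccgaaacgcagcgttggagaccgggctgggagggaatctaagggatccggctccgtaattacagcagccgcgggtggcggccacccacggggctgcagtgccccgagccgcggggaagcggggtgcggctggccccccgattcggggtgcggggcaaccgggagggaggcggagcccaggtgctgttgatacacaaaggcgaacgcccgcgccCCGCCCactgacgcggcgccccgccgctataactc
The Obox3 window is rich in A and T and holds a TATA box and, on the opposite strand, a homeobox motif and a CCAAT box. The Rpl10l window holds a single GC box, on the opposite strand. The Gstm1 window holds 1 CCAAT box and the Slc38a2 window 1 GC box, the latter also on the opposite strand. Such matches are descriptions of the letters, not shown to be bound.

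Kdm4d (chromosome 9, 14267025 to 14304926 on mm9, the build of the table) checks the labels. It stood at 723 and 283 FPKM in the mutant libraries and at 0.759 and 0.415 in IVF embryos. Both mutant libraries were far above both IVF libraries, and the first was above the second. The log2 difference was 8.17 (SE 0.47, limma adjusted p = 5.78e-07). Embryos given Kdm4d itself had 8879 and 2255 FPKM, above both mutant libraries, and plain SCNT embryos 0.543 and 0.327. The share of the introduced sequence that falls within the gene model is unknown here, so these levels are not amounts of construct.

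Far more genes separated mutant SCNT from IVF embryos than the overexpressed gene. Of the 13454 genes tested, 3649 (27.1%) were higher and 1961 (14.6%) lower in the mutant embryos, 41.7% in all. By at least 2-fold, 2395 (17.8%) were higher and 1399 (10.4%) lower. The median log2 difference over all genes was 0.28. Higher calls made up 65% of all calls, but 49.5% after quantile normalization (2455 higher, 2503 lower), which moved the median to 0.03. The first mutant library weighed on the counts: without it 1857 genes were higher and 1010 lower, and without the second 2303 and 1634.

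**Figure D1:**
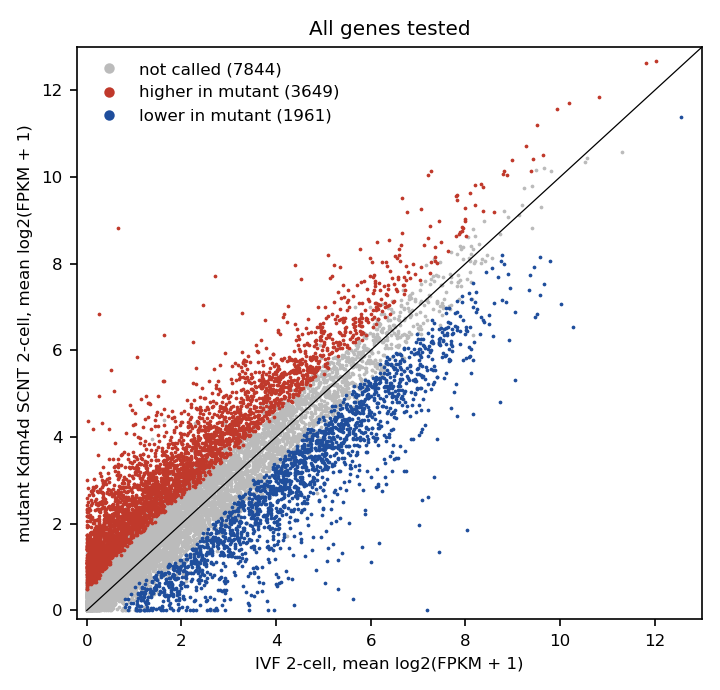
Mean log2(FPKM + 1) of each gene tested in the 2 IVF libraries (horizontal axis) and the 2 mutant Kdm4d SCNT libraries (vertical axis), 1 point a gene. Red points are the 3649 genes called higher, blue the 1961 called lower and grey those not called, and the line marks equal levels; the highest red point far left is Kdm4d.

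The 12 genes with the largest rises stood at 5.92 FPKM or less after IVF and at 12.3 or more in both mutant libraries. Gstm1 encodes a glutathione transferase, an enzyme that conjugates glutathione to reactive compounds (chromosome 3, 107815168 to 107820891). It had 115 and 112 FPKM in mutant embryos against 0.173 and 0.234 after IVF, the 2 mutant values close together and far above both IVF values (log2 6.57, SE 0.28, adjusted p = 4.35e-08). Its level is uncertain, because 21.3% of its 50-base stretches also occur in another gene. Impact, a paternally expressed imprinted gene whose product restrains the amino acid sensor Gcn2 (chromosome 18, 13130761 to 13151457), had 164 and 269.6 FPKM against 5.76 and 5.36. Its mutant libraries lay well above both IVF libraries but differed from each other (log2 5.01, SE 0.34, adjusted p = 1.55e-06). Gadd45g, a stress-induced gene that slows the cell cycle (chromosome 13, 51942044 to 51943843), had 25.9 and 80.9 FPKM against 0.7 and 0.211, with a wide gap between the mutant libraries (log2 5.03, SE 0.89, adjusted p = 0.000844). Slc38a2, which encodes a transporter of neutral amino acids (chromosome 15, 96517823 to 96530129), had 22.6 and 39.9 FPKM against 0.155 and 0.241 (log2 4.70, adjusted p = 1.39e-06). Ripk3, the kinase that starts necroptosis (chromosome 14, 56403832 to 56407694), had 12.3 and 23.8 FPKM against 0.156 and 0.0418 (log2 4.05, adjusted p = 4.88e-06). In both genes the lower mutant library was still many times above the higher IVF library.

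The chemokine gene Cxcl10 stood at 35.7 and 29.4 FPKM against 0.316 and 0.672, and Tmem37, a membrane protein gene, at 50.4 and 63.5 against 1.19 and 0.997. Wbp5 and Ngfrap1, X-linked genes of the Bex and Tceal family of small proteins, stood at 95.1 and 69 against 1.13 and 3.47 FPKM and at 14.3 and 25.1 against 0.0685 and 0.445. The genes 4930444P10Rik (121 and 141 against 5.92 and 3.34 FPKM) and 1110007C09Rik (24.4 and 15.7 FPKM, listed at 0 and at 0.0386 after IVF) completed the 12. The absence of overlap between the groups is part of how these genes were chosen. Every one of the 12 kept its call in all alternatives run.

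The 12 genes with the largest falls stood at 30.9 FPKM or more after IVF and at 14.2 or less in both mutant libraries. The X-linked gene 1700013H16Rik (chromosome X, 51046078 to 51061008) had 135 and 154 FPKM after IVF and was listed at 0 in both mutant libraries (adjusted p = 4.34e-08). Rfpl4b, a gene of the Ret finger protein-like family (chromosome 10, 38540347 to 38541585), had 253 and 269.5 FPKM after IVF against 0.327 and 8.83 (log2 −6.18, SE 0.54, adjusted p = 7.15e-06). Rpl10l, a retrogene copy of the ribosomal protein gene Rpl10 (chromosome 12, 67384366 to 67385388), had 50.6 and 45.7 FPKM against 0.0485 and 0.361 (log2 −5.36, SE 0.27, adjusted p = 3.38e-07). In Rfpl4b the second mutant library stood well above the first, as it also did in Gm13078 (0.146 and 4.69 FPKM against 186 and 163 after IVF) and 1600025M17Rik (1.5 and 14.2 FPKM against 147 and 148). The mutant replicates thus disagreed by more than the IVF replicates, while every one of their values stayed far below IVF.

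Several of the 12 belong to families of near-identical copies, whose values are uncertain because no source used here says how reads with several positions were treated; the same holds for every other gene given with a share. Obox3, an oocyte-specific homeobox gene (chromosome 7, 16210655 to 16225126; 33.7% of stretches shared), had 3.35 and 6.93 FPKM against 141 and 128 (log2 −4.53, SE 0.26, adjusted p = 5.78e-07). Zscan4d (chromosome 7, 11746992 to 11751497; 48.9% shared), of the zinc finger family that marks the 2-cell stage, had 0.556 and 0.269 FPKM against 41.4 and 36.5. Pramef6 (36.6% shared), Gm4971 (36.8% shared) and Gm8300 (26.8% shared) had at most 2.82 FPKM in any mutant library and at least 30.9 after IVF. The gene 1700019M22Rik, with no shared stretch, had 1.49 and 5.25 FPKM against 125 and 131, and B020004J07Rik (12.6% shared) 1.33 and 2.69 against 71.8 and 71.7. All 12 kept their calls in all alternatives run.

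**Figure D2:**
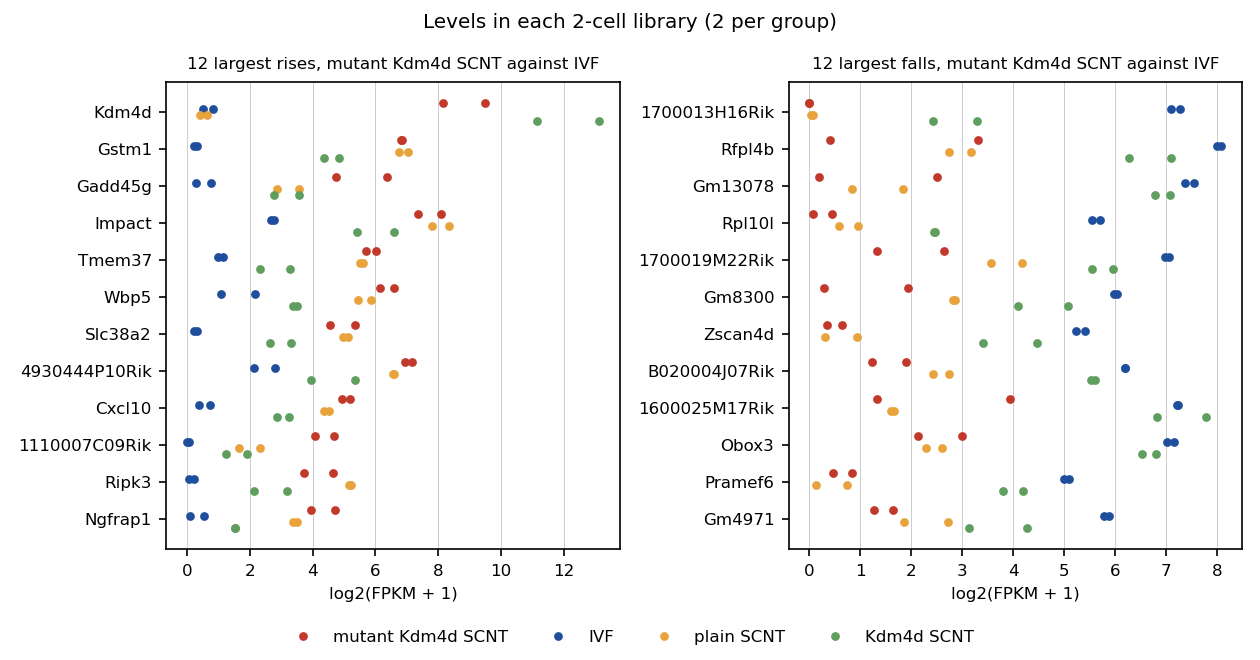
log2(FPKM + 1) of the 12 genes with the largest rises (left) and falls (right) in each 2-cell library, 1 point a library and 2 libraries a group. Mutant Kdm4d points (red) lie away from IVF (blue) in every row, plain SCNT points (orange) in every row but Kdm4d, and SCNT embryos given Kdm4d itself (green) lie between IVF and mutant in most rows; Kdm4d itself reaches 8879 FPKM in the green group.

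Counts of list members are read against the 27.1% of all genes called higher and 14.6% called lower. Leaving out either mutant library also lowered the counts over all genes, as given above. The transcripts characteristic of the 2-cell stage had the largest share of members lower among the lists with 5 or more tested genes. Of 54 tested members 48 were lower and 2 higher, with a median log2 difference of −2.49 against 0.28 over all genes. The summed level of the 67 listed genes in the table was 1249 and 1581 FPKM in the mutant libraries and 6319 and 5980.2 after IVF. Besides Zscan4d, Gm13078 and Gm8300, Obox6 had 63.7 and 183 FPKM against 696 and 715 (log2 −2.69, SE 0.39, adjusted p = 0.000214), Tdpoz1 3.03 and 5.4 against 35 and 34.7, and the interferon-inducible nuclear body gene Sp110 10.6 and 27.2 against 141 and 128; these 3 were named outside the rule, as examples of further members. The 2 members called higher were Obox1 (98.7 and 46.4 FPKM against 24.3 and 29.5) and Obox2 (28.1 and 16.6 against 12.7 and 13), which share 50.8% and 57.8% of their stretches. Both were higher still in IVF 1-cell embryos, Obox1 at 528 and 523 FPKM and Obox2 at 369.7 and 404. Both lost their calls without the first mutant library (adjusted p = 0.109 and 0.482) and in the fit to the 4 libraries (0.0595 and 0.112). Obox2 also lost its call in the 8-library fits, under both other scalings, with a pseudocount of 0.1, with no filter and without either IVF library (adjusted p from 0.0551 to 0.0867). Without the first mutant library 42 members were lower, and without the second 47. Of the 36 members with a RefSeq promoter window, 11 (30.6%) held the Crx-type homeobox motif on either strand, against 5.58% of the 10735 tested genes with a window and 6.38% of the 27025 windows in the table. A TATA box stood in 7 (19.4%, against 7.45%) and a GC box in 5 (13.9%, against 55.7%). Several members of this list are copies of 1 another and their promoters are not independent, so no test was made.

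Genes of ribosome building fell widely. Of 103 genes of ribosome biogenesis 74 were lower and 2 higher (median −1.12). Pwp1, which acts in ribosomal RNA production, had 6.15 and 9.3 FPKM against 56.2 and 47.2 (log2 −2.61, SE 0.31, adjusted p = 6.25e-05). Rrs1, a large-subunit assembly factor, had 2.35 and 2.49 against 16.7 and 17.5, and Polr1e, a subunit of RNA polymerase I, 8.51 and 19.7 against 76.2 and 64.5. The 2 higher members included Tsr2 at 7.95 and 4.38 FPKM against 2.53 and 2.11 (25% shared), a call lost without the first mutant library (adjusted p = 0.187). Without that library 47 members were lower and without the second 71. Of 77 cytosolic ribosomal proteins 36 were lower and 3 higher (median −0.65), with Rps20 at 24.7 and 26.6 FPKM against 125 and 131 (15.6% shared) and Rpl39 at 42.4 and 39.6 against 149 and 190.1. Rpl14 was higher, at 43.6 and 65.2 against 22.8 and 17.9, but 39.8% of its stretches occur elsewhere. Without the first mutant library 15 of these 77 were lower. Among 8 ribosomal protein paralogues 4 were lower and 1 higher, the lowest being Rpl10l, described above, and Rpl39l at 10.2 and 5.28 FPKM against 162 and 161 (log2 −4.27, SE 0.29, adjusted p = 1.82e-06).

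The machinery of transcription and of histone H3 lysine 9 methylation was lower in part, in 37.3% and 40% of members against 14.6% of all genes. Of 51 genes of RNA polymerase II and the general transcription factors 19 were lower and 6 higher (median −0.49), and 12 were lower without the first mutant library. Tbp, the TATA-binding protein, had 12.7 and 19.8 FPKM against 70.5 and 65.4, whereas its germ-cell relative Tbpl2 had 14.3 and 5.41 against 2.91 and 1.89 and Gtf2a2, a subunit of TFIIA, 321 and 191 against 74.4 and 85.5. The Tbpl2 call was lost without the first mutant library (adjusted p = 0.149). Of 20 H3 lysine 9 methyltransferases and readers 8 were lower and 2 higher (median −0.22), 3 lower without that library. The methyltransferase gene Suv39h1 had 4.32 and 7.73 FPKM against 15.1 and 16.4 (log2 −1.30, adjusted p = 0.00104; 25.5% shared), Prdm2, of the same enzyme class, 4.96 and 6.37 against 13.8 and 13.9, and Cbx3, a heterochromatin protein that reads the mark, 7.26 and 7.84 against 16.2 and 17.5 (18% shared). Of 11 other H3 lysine 9 demethylases 3 (27.3%) were lower and none higher. Of aminoacyl tRNA synthetases 38.1% were lower and 23.8% higher, against 14.6% and 27.1% of all genes. Among 21 aminoacyl tRNA synthetases 8 were lower and 5 higher, and fewer were lower without the first mutant library. Rars (20.1 and 25.2 FPKM against 87.4 and 90.7) was lower and Tars (10.6 and 12.3 against 3 and 1.96) higher. In IVF 1-cell embryos Rars had 27 and 28.5 FPKM and Tars 15.5 and 14.7.

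Most of the tested transcripts stored in the oocyte were higher. Of 85 maternal transcripts 51 were higher and 7 lower (median 0.84). Bmp15, an oocyte growth factor gene, had 680.1 and 498 FPKM against 105 and 109.5 (log2 2.43, SE 0.21, adjusted p = 7.11e-06), Uchl1, which encodes a deubiquitinase, 431 and 320.3 against 83.8 and 82.1, and Tcl1b5, of the Tcl1 oncogene family, 239 and 137 against 42 and 41.2 (20.8% shared). Lower members included Zar1l, of the zygote arrest family (6.68 and 4.4 against 41.7 and 34.9), and Dppa3, which guards maternal DNA methylation (3375 and 2136 against 5891 and 6158; 17.4% shared), whose call was lost in a fit to the 4 libraries (adjusted p = 0.236) and to the 8 libraries of 2-cell embryos (0.0556). The first mutant library carried much of the rise. Of 73 maternal genes at 5 FPKM or more in the mutant group, 63 were higher in the first than the second mutant library, by a median of 0.48 on the log2 scale; the list summed to 50399 and 26566 FPKM against 22805 and 23437 after IVF. Of all 5789 tested genes at 5 FPKM or more in the mutant group, 2821 were higher in the first mutant library. Without that library fewer members were called higher than without the second, as held over all genes. In a fit to the 4 libraries only, 31 members were higher, and 3131 of all genes against 3649 in the main fit.

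**Figure D3:**
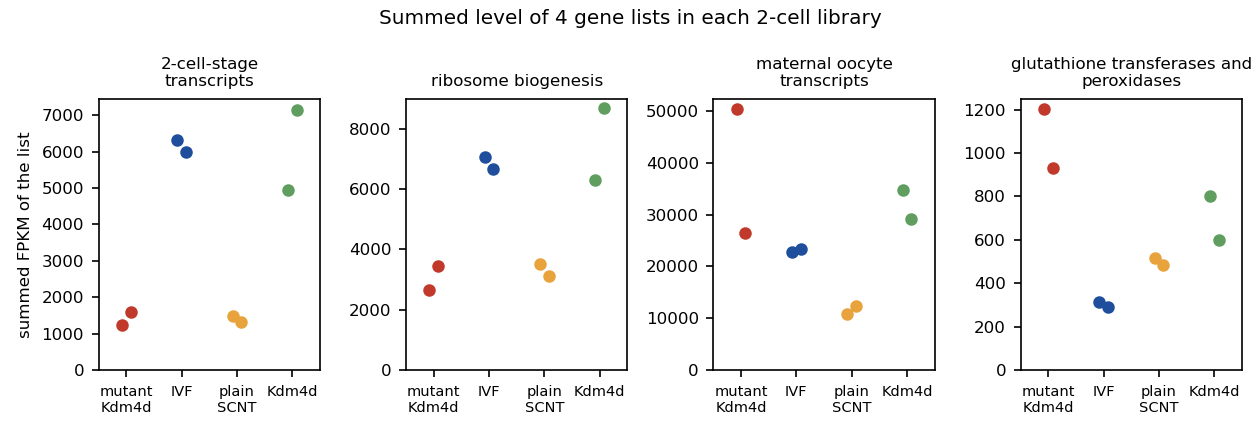
Summed FPKM of 4 gene lists in each 2-cell library, on linear axes from 0, 1 point a library. For 2-cell-stage and ribosome biogenesis genes both mutant libraries lie below both IVF libraries, while the maternal list of the first mutant library stands at 50399, above all other libraries, and the glutathione list (1204 and 931 FPKM in the mutant, 315 and 289.9 after IVF) is highest in the mutant group.

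Glutathione enzymes had the largest share of members higher among the same lists. Of 33 glutathione transferases, peroxidases and synthesis genes 21 were higher and 1 lower (median 1.38). Besides Gstm1, Gsta4, an enzyme that detoxifies lipid peroxidation products, had 78.5 and 67.2 FPKM against 3.44 and 4.11 (log2 3.95, SE 0.24, adjusted p = 9.38e-07), and Gsto1, of the omega class, 22.1 and 23.8 against 1.5 and 2.11. Gsta4 was already at 67.6 and 73.7 FPKM in IVF 1-cell embryos and at 59.6 and 69.9 in SCNT 1-cell embryos. Gstm1 and Gsto1 stood at 1.52 FPKM or less in those embryos. The 1 lower member, Gss, which encodes glutathione synthetase (1.56 and 2.8 against 6.84 and 4.8), lost its call without the first mutant library (adjusted p = 0.244). The 3 higher genes named were the largest called rises of the list, so values far above IVF follow from that choice. The summed level of the list was 1204 and 931 FPKM against 315 and 289.9.

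The amino acid and stress genes driven by Atf4, the factor that responds to amino acid shortage and unfolded protein, were called in both directions. Of 29, 15 were higher and 6 lower (median 0.74), 8 and 2 without the first mutant library. Slc38a2 is described above. Psph, the last enzyme of serine synthesis, had 34.8 and 41.8 FPKM against 2.07 and 2.16 (log2 3.65, SE 0.25, adjusted p = 1.65e-06), and Nupr1, a stress-induced chromatin protein gene, 234 and 366 against 37.9 and 29.4. Lower were Sesn2 (0.698 and 1.39 against 13.1 and 8.96), an inhibitor of growth signalling, and Ppp1r15a (8.75 and 24.9 against 85.6 and 72.8), a phosphatase subunit that ends the translation block. Trib3 (3.83 and 9.23 against 18 and 12.4 FPKM) was called lower as well but lost its call without the first mutant library (adjusted p = 0.361).

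Among genes of cell death, 9 of 22 were higher and 1 lower (median 0.48), with 5 higher without the first mutant library. Casp6, an executioner caspase gene, had 20.5 and 16.5 FPKM against 2.89 and 3, and Bik, which promotes apoptosis, 76.9 and 33.6 against 14 and 14.1, the latter call lost without that library (adjusted p = 0.0527). Of 22 cholesterol synthesis genes 9 were higher and 1 lower (median 0.77), 4 higher without either mutant library and 5 after quantile normalization. Sc5d (17 and 18.2 against 5.62 and 5.59) and Dhcr7 (8.71 and 11.1 against 3.01 and 4.08), late enzymes of the route, were higher, and Fdft1, which commits the route to squalene, was lower (7.69 and 11 against 41.8 and 31.3) with 32.9% of stretches shared. In this list and in that of cell death, 40.9% were higher and 4.55% lower, against 27.1% and 14.6% of all genes.

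Of 25 paternally expressed imprinted genes 11 (44%) were higher and 4 (16%) lower (median 0.64), against 27.1% and 14.6% of all genes, and 7 were higher without either mutant library. Besides Impact, Sfmbt2, a Polycomb-related gene, had 5.79 and 12.9 FPKM against 1.7 and 2.08, a call lost without the second mutant library (adjusted p = 0.0756), and Mest, of a hydrolase family, 18.9 and 14.8 against 6.89 and 7.05 (24.1% shared). Usp29 (2.18 and 2.8 against 22.8 and 20.5; 22.8% shared), Zim3 (68.3% shared) and Zrsr1 were lower. Of 22 maternally expressed genes 9 (40.9%) were higher and 2 (9.09%) lower (median 0.37), 5 higher without either mutant library, among them Commd1 (28.8 and 21.3 against 8.02 and 7.99; 19.3% shared) and Gnas (42.9 and 32.7 against 12.4 and 11.7; 38.1% shared). Igf2r, which encodes a receptor that clears Igf2, was lower at 5.26 and 8.34 against 16.5 and 14.7, but not without the first mutant library (adjusted p = 0.124).

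**Figure D4:**
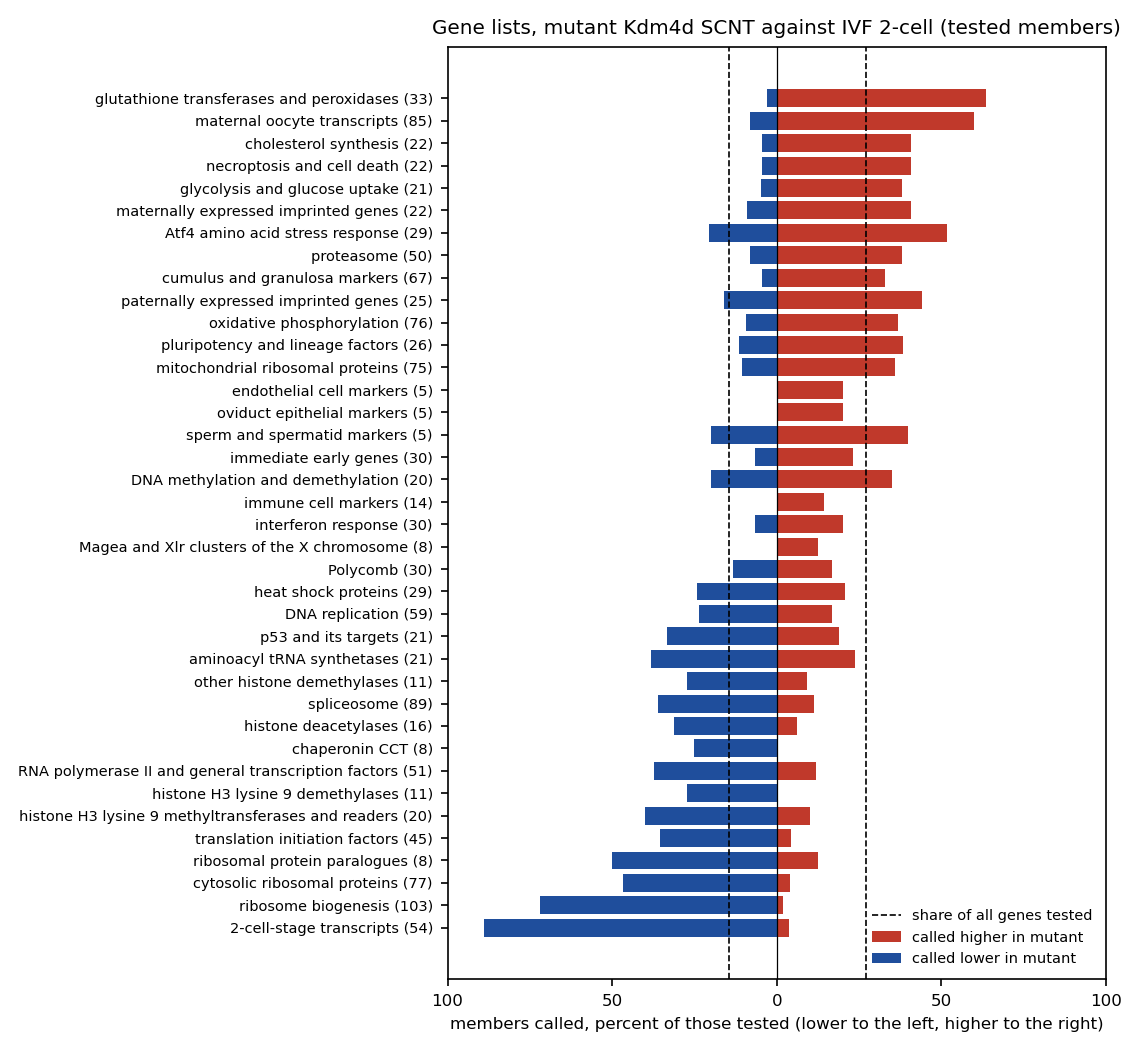
Percent of tested members of each gene list with 5 or more tested members called higher (red, right) or lower (blue, left) in mutant Kdm4d SCNT than IVF 2-cell embryos, with the number of tested members in brackets. Dashed lines mark the shares of all genes tested, 27.1% higher and 14.6% lower; 2-cell-stage transcripts and ribosome biogenesis reach furthest left, glutathione enzymes and maternal transcripts furthest right.

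Y-linked transcripts were present after IVF and near 0 in the mutant libraries. Eif2s3y had 15.1 and 11.6 FPKM after IVF and was listed at 0 in both mutant libraries, as it was in plain SCNT embryos and those given Kdm4d itself. Uty had 6.77 and 4.29 after IVF and was listed at 0 in both mutant libraries. All 4 tested Y-linked genes were lower, and the 10 listed genes in the table summed to 0.00504 FPKM and 0 in the mutant libraries against 29.7 and 22.6. Eif2s3y and Uty stood at 0.118 FPKM or less in every other group. They passed the filter of 1 FPKM only through the IVF 2-cell libraries, so the filter fixed their direction and the count is no support. Per the labels' protocol the donor cumulus cells came from females, while the sex of the IVF embryos is not stated, so sex and group cannot be told apart. Xist, the RNA that coats the inactive X chromosome and named outside the rule for its low level, had 1.54 and 2.74 FPKM against 0.222 and 0.165 (log2 1.37, SE 0.26, adjusted p = 0.00122). Tsix, its antisense partner, had 12.6 and 7.09 against 0.916 and 0.984 (40.7% shared), but the counting is not stated to use strand, so reads of Xist and Tsix cannot be told apart. Rlim, an X-linked activator of Xist, was lower (38.3 and 29.4 against 62.7 and 58.3). Over all 492 tested genes of the X chromosome 94 (19.1%) were higher and 107 (21.7%) lower with a median of 0.01, against 27.4% and 14.3% and a median of 0.29 over 12955 autosomal genes. No test was made of that difference, since genes of a chromosome are not independent.

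Genes were also sorted by their level in donor cumulus cells and 1-cell embryos. Over all genes 27.1% were higher and 14.6% lower. Of 220 genes at 20 FPKM or more in donor cumulus cells and under 0.5 in IVF 1-cell embryos, 79 (35.9%) were higher and 19 (8.64%) lower in the mutant embryos (median 0.42). Of 287 with the reverse pattern, low in donor cells and high in IVF 1-cell embryos, 186 (64.8%) were higher and 20 (6.97%) lower (median 0.96). Of 8488 genes under 0.5 FPKM in donor cells and in IVF and SCNT 1-cell embryos, 769 were tested, and 236 of these were called higher and 209 lower. Such genes pass the filter of 1 FPKM only through other groups, so these counts are set in part by the filter.

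Markers of other cell types were counted against the 27.1% of all genes higher and 14.6% lower, and their levels were summed over all listed genes in the table. Among markers of cumulus and granulosa cells, 22 of 67 tested (32.8%) were higher and 3 (4.48%) lower (14 and 8 after quantile normalization; 13 higher without the first and 14 without the second mutant library), but the list summed to 2072 and 2990.4 FPKM in the mutant libraries, below the 3637 and 3400.4 after IVF. The higher ones named were S100a11 (16.1 and 16.1 against 0.862 and 0.692; 40.4% shared), S100a10 (30.7 and 13.2 against 1.27 and 1.4) and Anxa5 (12.8 and 17.7 against 1.23 and 1.04), and the lower one Nr5a2 (4.44 and 8.44 against 32.4 and 26.5). Markers that define a cell type, and those called on short lists, are also given, outside the naming rule. Of those of steroid-making cumulus cells, Cyp11a1 had 0.659 and 0.0236 FPKM against 0.977 and 2.63, Akr1c18 1.15 and 0 against 2.29 and 4.33 (called lower, adjusted p = 0.0294), Foxl2 and Inha were listed at 0 in both mutant libraries. Of 14 immune markers 2 (14.3%) were higher, H2-Aa (36 and 22.7 against 0.818 and 1.66) and Ms4a1 (14.3 and 15.9 against 4.43 and 4.95), and the list summed to 121 and 162 FPKM against 176 and 167, with Ptprc at 0 and 0.0271. H2-Aa and Ms4a1 were also present in IVF 1-cell embryos, at 16.7 and 13.7 and at 76.7 and 73.6 FPKM. Among 5 tested endothelial markers Pecam1 was called higher (2.3 and 5.11 against 1.17 and 0.906; lost without the second mutant library, adjusted p = 0.261), Kdr stood at 0.0455 and 0.0212 in the mutant libraries, and the list summed to 5.13 and 10.3 against 4.01 and 3.37. The oviduct list summed to 60.4 and 86.7 against 73.9 and 78.5, with 1 of 5 tested called higher (Muc1, 1.53 and 2.06 against 0.093 and 0.0114) and Krt7 at 0.345 and 0.294. Sperm markers summed to 70.1 and 60.8 against 36 and 37.8, with 2 of 5 tested called higher and 1 lower. Odf2, 1 of the higher ones, had 97.1 and 98.2 FPKM in IVF 1-cell embryos. Odf2 (50.1 and 39.8 against 23.9 and 26.6) lost its call without the first mutant library (adjusted p = 0.19) and in the 8-library fit without group weights (0.055), Acrv1 stood at 1.74 and 2.45 against 0 and 0.13, and Pgk2, the lower one, was listed at 0 in both mutant libraries against 1.17 and 1.19. The single red blood cell marker tested, Hba-a2, had 22.1 and 18.2 against 2.1 and 2.12 and was not called (adjusted p = 0.124, but 0.0092 in a fit to the 4 libraries); it shares 87.5% of its stretches, and Hba-a1 stood near 0. The part of these levels in the differences above was not tested. Gdf9, an oocyte factor, was present at 53 and 37.3 FPKM against 22.9 and 18.

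Whether the mutant Kdm4d embryos differed from plain SCNT embryos was tested directly, since both differ from the same IVF libraries and comparing those 2 differences would share their error. Of the 13454 genes 445 (3.31%) were higher and 117 (0.87%) lower in mutant than plain SCNT embryos, 4.18% in all, with a median log2 difference of 0.01. By at least 2-fold, 361 (2.68%) were higher and 80 (0.595%) lower. The plain SCNT libraries were pools of 40 embryos, the mutant ones of 25. Relative to the first IVF library, plain SCNT depths were 1.04 and 1.14, against 0.586 and 0.637 in the mutant group. Pool size, depth and the introduced gene therefore cannot be told apart in this comparison. After quantile normalization 361 and 354 genes were called, 50.5% of the calls higher against 79.2%. These counts rest on few libraries. No gene was called in a fit to the 4 libraries (limma; 1634 higher and 905 lower at an unadjusted p under 0.05), and without the first mutant library 8 were higher and none lower (858 and 300 at an unadjusted p under 0.05). Without the first plain SCNT library 113 were higher and 21 lower, and without the second mutant library 387 and 189.

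The largest rise was Kdm4d itself (log2 8.31, SE 0.49, adjusted p = 5.9e-06), which lost its call only in the fit to the 4 libraries (adjusted p = 0.112) among the alternatives run. Lmo1, a LIM-domain transcription cofactor gene (chromosome 7, 116282086 to 116313822), had 108 and 124 FPKM in mutant against 7.9 and 13.3 in plain SCNT embryos (log2 3.37, adjusted p = 0.0154; 9.98 and 7.69 after IVF). It lost its call without either mutant library (adjusted p = 0.243 and 0.0678). Phlda2, a maternally expressed imprinted gene that limits placental growth (chromosome 7, 150687453 to 150688429), had 57.5 and 33.4 against 3.43 and 3.52 (log2 3.33, adjusted p = 0.0016; 18 and 18.6 after IVF). Prl3b1, a placental prolactin-family gene, had 8.14 and 6.76 and was listed at 0 in plain SCNT embryos (adjusted p = 0.00132). These 3 stood at similar levels in embryos given Kdm4d itself: 114 and 45.3, 63.4 and 43.6, and 7.55 and 7.19 FPKM. Those libraries were also pools of 25, with relative depths of 0.655 and 0.532. In IVF and SCNT 1-cell embryos Lmo1 had 28.6 and 56 and 77 and 67.7 FPKM, and Phlda2 15.3 and 22.9 and 36.5 and 41.3. Prl3b1 was listed at 0 in all 1-cell libraries. The cause of these differences was not tested. The falls named were Iqcf1 (0.277 and 1.02 against 9.87 and 7.34), the histone H1 gene Hist1h1b (5.85 and 4.49 against 43.2 and 27.7), the muscle phosphoglycerate mutase gene Pgam2 (0.17 and 0.789 against 6.4 and 7.18) and Lgals7 (0 and 1.03 against 7.8 and 4.55). Every other gene named here lost its call both in the fit to the 4 libraries and without the first mutant library.

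By list, 26 of the 85 maternal transcripts were higher in mutant than plain SCNT embryos and 0 lower, the largest share among the lists with 5 or more tested members (30.6%, against 3.31% of all genes). The count was 3 without the first mutant library, 11 without the first plain SCNT library, 13 after quantile normalization, 8 in the fit to the 8 libraries of 2-cell embryos and 0 in that to 4. Bmp15 (adjusted p = 0.0152), Uchl1 (0.00974) and Tcl1b5 (0.00174) were among the 26, and without the first mutant library none of the 3 was called (adjusted p = 0.297, 0.242 and 0.0654). The list of 2-cell-stage transcripts gave 2 higher (3.7%) and 4 lower (7.41%) of 54 and that of ribosome biogenesis 0 higher and 2 lower (1.94%) of 103, against 3.31% and 0.87% of all genes. Side by side, Obox3 had 3.35 and 6.93 FPKM in mutant and 3.88 and 5.06 in plain SCNT embryos against 141 and 128 after IVF, and Gstm1 115 and 112 and 131 and 106 against 0.173 and 0.234.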

How the data were processed

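Per the labels' protocols, embryos were lysed, cDNA was made with the SMARTer Ultra Low Input kit, sheared and made into NEBNext Ultra libraries, and single-end 50-base reads were taken on a HiSeq 2500. Per the submitters' processing notes, the tools were Novoalign and Cufflinks 2.0.2 and the genome build mm9. The authors deposited FPKM for 23697 rows and 14 libraries; their filters, annotation and handling of multiply mapped reads were not given in the sources used here. Table starts count from 0, so 1 was added.

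The 804 rows of short RNAs were left out, 630 rows sharing a symbol were summed, and the 13454 genes that reached 1 FPKM in 2 or more libraries were tested on log2(FPKM + 1) with limma 3.58.1 in R 4.3.3. All 7 group means entered 1 fit with 1 weight per group, an intensity trend and 7 residual degrees of freedom, with Benjamini-Hochberg adjustment at 0.05 within a comparison. Weights were used because the mutant replicates spread more widely. The fit was tested on simulated data for mutant against IVF embryos. It recovered 37% of 100 changes of 1 on the log2 scale and 99% of 100 changes of 2, with 7 false calls among 13454 genes. In the real comparison 41.7% of genes were called, a far larger share than was changed in the simulated data. Recovery and false calls at that larger share were not tested. Differences of about 2-fold can go uncalled, but how many is not known. The labels do not state whether replicates came from separate experiments, so p-values measure the spread between these libraries only, and embryos were pooled.

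Genes and lists were chosen with earlier results of these data known. Named were the 12 largest rises and 12 largest falls (group mean of 5 FPKM or more, libraries of the groups not overlapping), up to 3 members per direction of each list described, the 4 largest rises and falls against plain SCNT, and Kdm4d. A gene that this rule names is not reported here. Lists described were the 7 with the highest share higher, the 7 with the highest share lower, and the marker, X and Y lists. Shared sequence is the percent of 50-base stretches, every 10 bases, of GENCODE M21 transcripts also found in another gene. Promoters are 250 bases of RefSeq GRCm38.p6 before the start, which matched 10735 of the tested genes. Alternatives were no weights, fits to 4 or 8 libraries, quantile or median scaling, pseudocounts of 0.1 and 5, other filters, leaving out each library, and replicate blocks; the unweighted 8-library fit and the crossed block were added after seeing the data.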

Additional observations from a re-analysis of the deposited data

How the results depend on the processing

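No called difference of a named gene and no median changed sign under any alternative run, but after quantile normalization fewer genes were higher (2455) than lower (2503) against IVF. Against IVF (3649 higher, 1961 lower) the numbers of genes called stayed within 1.5 times, except 2052 higher with a mean of at least 5 FPKM, and, leaving out 1 library at a time, 1857 to 3351 higher and 1010 to 1889 lower. The median log2 difference (0.283) was 0.0317 after quantile normalization, 0.239 with equal medians, 0.461 and 0.111 with pseudocounts of 0.1 and 5 and 0.0698 with no filter, and ran from 0.241 to 0.299 without 1 library.

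Against plain SCNT (445 higher, 117 lower) the counts were 1514 and 861 with no group weights, 0 and 0 in the 4-library fit, 128 and 27 in the 8-library fit (231 and 63 with no weights), 354 lower after quantile normalization, 240 higher with equal medians, 184 lower with a pseudocount of 5, 8 to 387 higher and 0 to 189 lower without 1 library. The cause of these differences was not tested.

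Over 112 differences of named genes, 104 of 1777 pairs of difference and setting lost their call and 4 gained one. None of the 384 pairs of the 24 genes with the largest differences against IVF lost its call. The replicate block gave 3604 higher and 1939 lower against IVF, and 355 and 76 against plain SCNT; the numbers did not pair the samples (correlation of deviations −0.135 and −0.223), and with the pairing crossed the counts were 3746 and 2004, and 419 and 111. Depth was known only in relative terms, and the mutant libraries were among the shallowest.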

Other observations

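Further gene lists were counted without naming members. Against IVF, 28 of 76 oxidative phosphorylation genes were higher and 7 lower, 27 and 8 of 75 mitochondrial ribosomal proteins, 19 and 4 of 50 proteasome genes, 8 and 1 of 21 glycolysis genes, and 10 and 3 of 26 pluripotency and lineage factors. In the other direction, 10 of 89 spliceosome genes were higher and 32 lower, 2 and 16 of 45 translation initiation factors, 4 and 7 of 21 p53 targets and 1 and 5 of 16 histone deacetylases. Counts were 7 and 4 of 20 for DNA methylation and demethylation, 10 and 14 of 59 for DNA replication, 5 and 4 of 30 for Polycomb and 6 and 2 of 30 for the interferon response. All are read against 27.1% and 14.6% of all genes.

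The following 3 genes were singled out after their values were seen. Ctsj, a placental cathepsin gene, was listed at 0 in both libraries of donor, 1-cell, IVF 2-cell and plain SCNT groups. It had 5.7 and 4.4 FPKM in mutant Kdm4d embryos and 5.69 and 3.98 in embryos given Kdm4d itself. Mphosph6, which encodes a cofactor of the RNA exosome, had 6297 and 1778 FPKM in mutant embryos, 1158 and 1182 after IVF and 425 and 504 in plain SCNT embryos. Its level was 2923 and 1843 FPKM in embryos given Kdm4d itself and 4940.4 and 5029 in IVF 1-cell embryos. E330034G19Rik had 1724 and 430.1 FPKM in mutant embryos, 609 and 591 after IVF and 123 and 162 in plain SCNT embryos. Embryos given Kdm4d itself had 1204 and 589 FPKM of it and IVF 1-cell embryos 3930.2 and 3912. Mphosph6 and E330034G19Rik were thus abundant at the 1-cell stage, like stored transcripts. In both genes the first mutant library was far above the second, the same library in which maternal transcripts were highest.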
